A study of Oryctolagus cuniculus with 18 samples.

Results

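Retina from rabbit eyes that had undergone vitrectomy and received poly(CEP) 1 month earlier was compared with the retina of non-operated eyes, using 6 of the 18 RNA sequencing libraries of the series. The members were taken from the sample labels, 3 retina libraries at 1 month and 3 from non-operated eyes. The remaining 12 libraries are retina at 2 months and the second tissue, labelled retinal pigment epithelium and called RPE-choroid by the study, in all 3 conditions. All animals were male rabbits of 4 to 6 months, and the study's methods name them as New Zealand White. Poly(CEP) is a thermogelling multiblock polymer that serves as a vitreous substitute, and the comparison asks how retinal transcript levels differ in eyes that hold it. According to the methods, treated eyes also received an ointment of tobramycin and dexamethasone after surgery. Eyes with vitrectomy and no polymer were not analysed here, so the surgery, the ointment and the polymer cannot be told apart. The 1-month eyes had no induced proliferative vitreoretinopathy, the scarring disease that the study models in other eyes. The methods describe 3 biological replicates in each condition, but the labels do not name the animal behind each library. The p-values therefore measure the spread between these samples.

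The neural retina holds the photoreceptors, the interneurons and ganglion cells that carry their signal, and the Müller glia that span its layers. The retinal pigment epithelium lies behind the photoreceptors, renews their outer segments and forms the barrier to the choroid, the vascular layer that supplies the outer retina. Retina and RPE-choroid are in contact and are separated by hand at dissection, so a library of one can hold RNA of the other. The count table gives Ensembl identifiers only, and 0 of them could be paired with a gene symbol here. Genes are therefore described by their abundance and by the tissue in which they were higher at baseline, and the retina label could not be checked against marker genes. In bulk tissue, fewer cells of a type and less RNA per cell cannot be told apart.

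The counts assigned to genes ranged from 25181177 to 32605821 per library over the 6 libraries (median 29888729), which was between 47.4% and 50.5% of all reads in the table. Reads placed at several positions made up 8.08% to 9.38%. The 3 non-operated libraries differed from each other by a median of 0.20 to 0.24 log2 units over the 15878 genes tested. At 1 month, replicates 1 and 2 were the closest pair of all, at 0.14, while replicate 3 stood at 0.26 and 0.28 from them. The 9 pairs that cross the groups lay between 0.30 and 0.43, and the 3 widest of these held 1-month replicate 3. Every pair across the groups was thus farther apart than every pair within a group, although the lead over the widest pair within the 1-month group was small. No pair looked like repeat deposits of 1 library, the lowest chi-square per degree of freedom between any pair being 11.7, for 1-month replicates 1 and 2. Because 1-month replicate 3 stands apart, counts and named genes are given with and without it, and class shares library by library.

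**Figure D1:**
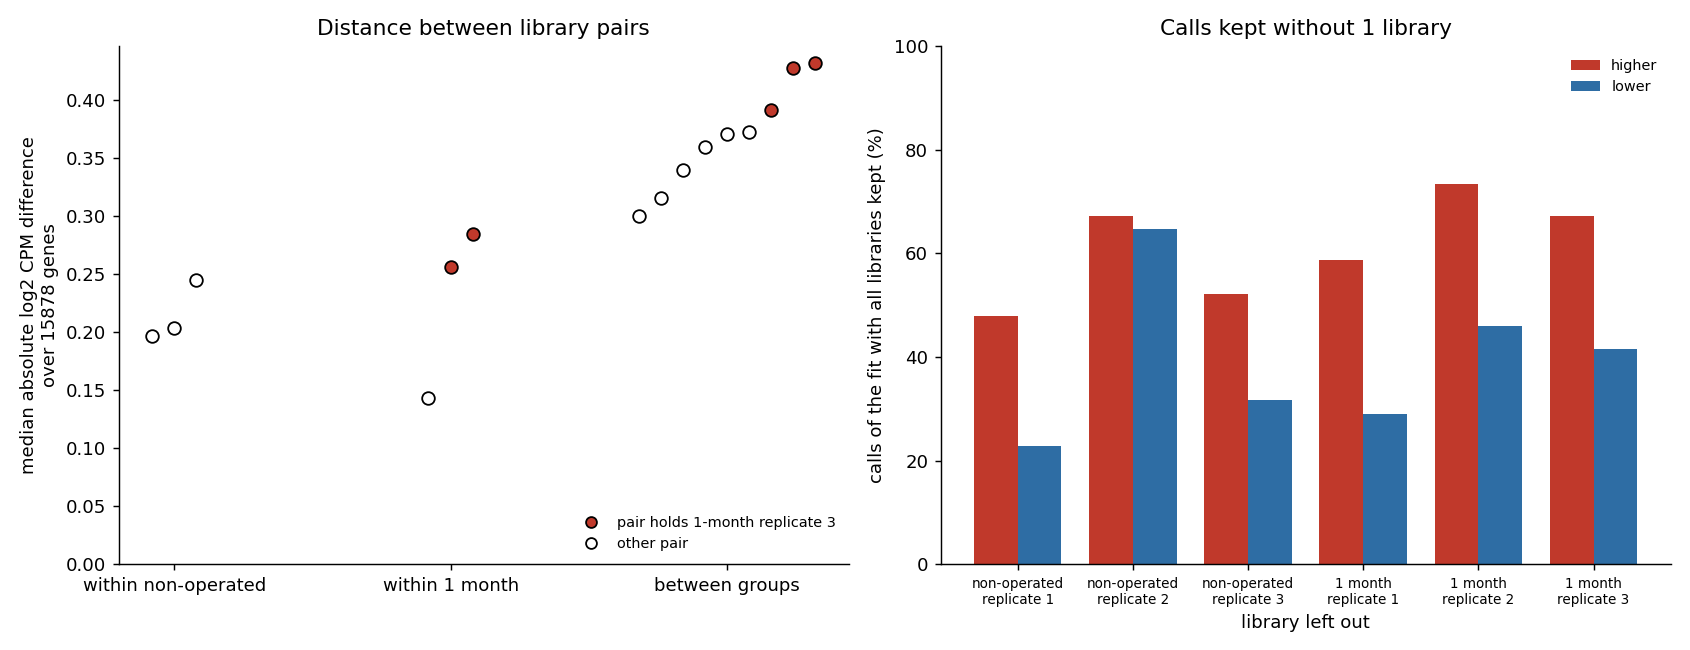
Left, the median absolute difference in log2 CPM over the genes tested for each of the 15 pairs of retina libraries, with pairs that hold 1-month replicate 3 filled in red. Right, the percentage of the genes called higher (red bars) and lower (blue bars) with all libraries that were still called when the library on the x axis was left out. The pairs across the groups begin at 0.30, above the 0.28 of the widest pair at 1 month, and the fewest calls were kept without non-operated replicate 1.

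Of the 29587 genes in the table, 15878 passed the filter on low counts, 6281 had no count in any of the 9 retina libraries, and 7428 had counts below the filter. At 1 month, 1731 genes (10.9% of those tested) rose and 1123 (7.07%) fell, by edgeR's quasi-likelihood test with a Benjamini-Hochberg adjusted p-value under 0.05. The rises were larger than the falls. The median change was 1.34 on the log2 scale among genes that rose, a 2.54-fold increase, and -0.74 among those that fell, a 1.67-fold decrease. Among the genes that rose, 1092 rose more than 2-fold, 557 more than 4-fold and 123 more than 16-fold, against 303, 45 and 5 among those that fell. Of the 1731 rises, 301 were of genes that reached the filter's count minimum in all 1-month libraries and not in all non-operated ones. The reverse held for 26 of the 1123 falls. The direction of such genes was set in part by the filter, and the sizes given here include them. When the test itself asked for a change beyond 1.5-fold (edgeR's glmTreat), 639 genes (4.02%) rose and 70 (0.441%) fell. The median change over all genes tested was 0.0096 after TMM normalisation, which itself centres most genes near 0. It was 0.0025 with RLE and 0.066 with upper-quartile normalisation.

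These counts moved with single libraries. The number of genes that rose was 847 without non-operated replicate 1, 953 without non-operated replicate 3 and 1030 without 1-month replicate 1. The number that fell was 258, 380 and 331 in the same order, 532 without 1-month replicate 2 and 576 without 1-month replicate 3. Beyond 1.5-fold, 341 genes rose and 22 fell without non-operated replicate 1, 366 and 41 without non-operated replicate 2, 358 and 36 without non-operated replicate 3, and 400 and 26 without 1-month replicate 1. Without 1-month replicate 2, 28 fell beyond 1.5-fold. Without 1-month replicate 3, the library that stands apart, 1276 genes rose, and 531 rose and 51 fell beyond 1.5-fold. More genes rose than fell in each of the 6 fits.

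Abundance is given in CPM, gene counts scaled to a common library size, as the mean of the 6 libraries, a scale on which a longer transcript gathers more counts at the same number of molecules. The direction of change differed along it. Between 1 and 10 CPM, 650 of 3994 genes rose (16.3%) and 117 fell (2.93%). Of these 3994, 209 reached the count minimum of the filter in all 1-month libraries and not in all non-operated ones, and 148 of the 650 rises were among them. Such genes entered through the group where they are high, so their direction was set in part by the filter. Between 10 and 100 CPM the directions were nearly balanced, with 728 of 7665 genes higher (9.5%) and 647 lower (8.44%). Between 100 and 1000 CPM the falls prevailed, with 150 of 2212 genes higher (6.78%) and 328 lower (14.8%). Read against the 10.9% and 7.07% over all genes, the band of 1 to 10 CPM held more rises and that of 100 to 1000 CPM more falls. With bands set on the 2-month retina libraries, which do not enter the contrast, 14.9% rose and 3.2% fell between 1 and 10 CPM, and 8.75% rose and 12.2% fell between 100 and 1000 CPM, a smaller lean in the same direction. Both orders were also seen in each fit with 1 library left out. The share of rises was 9.19% to 13% between 1 and 10 CPM and 3.12% to 5.2% between 100 and 1000 CPM, and that of falls 0.676% to 2.5% and 3.48% to 11.5%, each lowest without non-operated replicate 1.

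Below 1 CPM, 194 of 1918 genes rose and 23 fell, and here the filter sets a larger part of the split. Only 418 of these 1918 genes reached the count minimum of 0.356 CPM in all 3 libraries of both groups, and 3 of them rose. Another 551 reached it in the 1-month group and not in all non-operated libraries, and 145 of these rose. A gene that entered through the group where it is high had to differ, so the direction in this band is not read further. There were 20 tested genes with no count in any non-operated library and at least 1 in each 1-month library. They too entered through operated retina, so their direction was fixed. With 3 counts over the non-operated group as a floor, these 20 genes were at least 7.07-fold to at least 50.4-fold higher at 1 month, from totals of 23 to 164 counts. The reverse, no count at 1 month and counts in each non-operated library, was seen for 1 gene.

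Genes at 1000 CPM and over numbered 89, of which 9 rose and 8 fell. With bands from the 2-month libraries, 10 of 61 rose and 4 fell, so no lean of the calls is read here. Their fitted values leaned downwards, 32.6% being above 0, with a median of -0.38 and a median standard error of 0.25. The spread within the 1-month group was wider for these genes than in non-operated retina, a median SD of 0.28 against 0.14 log2 CPM, and 75.3% had the larger SD at 1 month. The 10 most abundant genes of non-operated retina took 8.28% to 8.59% of the gene counts in non-operated libraries. At 1 month they took 6.16%, 6.46% and 3.71% in replicates 1, 2 and 3, and the 3 values lie below every non-operated library. These genes were chosen as the highest in the non-operated libraries, a choice that favours lower values elsewhere. The 10 most abundant genes of each library itself took 8.31% to 8.59% in non-operated retina and 7.45%, 7.36% and 6.06% at 1 month, a smaller difference. None of the 10 passed the edgeR test. The smallest adjusted p-value was 0.0535. At an unadjusted p under 0.05, 4 were lower and 1 higher, and DESeq2 called 3 lower and 1 higher.

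**Figure D2:**
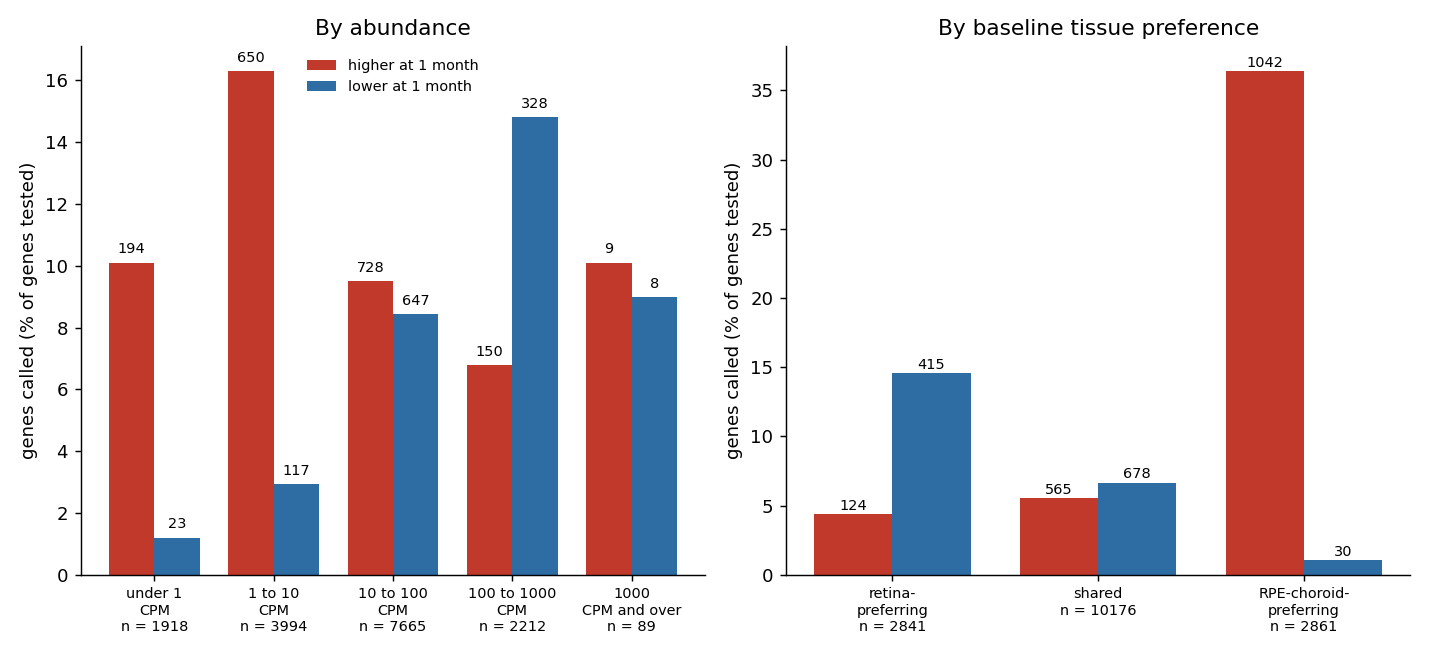
The percentage of tested genes called higher (red bars) or lower (blue bars) in retina at 1 month, with the number called above each bar and the number tested on the x axis. Left, by mean abundance of the 6 libraries in CPM. Right, by the tissue in which genes were higher in non-operated eyes. The bars cross between 10 and 1000 CPM on the left, and on the right the high bar is the 36.4% of RPE-choroid-preferring genes that rose.

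Baseline preference was taken from the non-operated eyes, as the mean log2 CPM in retina minus that in RPE-choroid. Genes more than 2-fold apart were called retina-preferring (2841 genes) or RPE-choroid-preferring (2861), and the other 10176 shared. RPE-choroid-preferring genes rose far more often than the rest. Of them, 1042 rose (36.4%) and 30 fell (1.05%), with a median change of 0.67 over the whole class and fitted values above 0 in 83.6%. Of these 2861 genes, 404 reached the count minimum of the filter in all 1-month libraries and not in all non-operated ones. They held 240 of the 1042 rises, whose direction was set in part by the filter. Retina-preferring genes showed the opposite lean, 124 rising (4.36%) and 415 falling (14.6%), with a median of -0.23. Of these, 95 entered through the non-operated group in the same way, with 21 of the 415 falls. Shared genes were near balance, 565 rising (5.55%) and 678 falling (6.66%), with a median of -0.03. The RPE-choroid-preferring class thus made up 18% of the genes tested and 60.2% of those that rose, and the retina-preferring class 17.9% of the genes tested and 37% of those that fell.

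The non-operated retina libraries set both the classes and the contrast, so the 2 are not independent. The non-operated RPE-choroid libraries also differed widely among themselves, with 3.01% to 21.1% of their gene counts on retina-preferring genes. With the classes set instead on the 2-month samples of both tissues, which do not enter the contrast, 807 of 2749 RPE-choroid-preferring genes rose (29.4%) and 66 fell. Of 3181 retina-preferring genes, 241 rose (7.58%) and 344 fell (10.8%). The lean of each class had the same direction and was smaller. The 2-month retina was itself from operated, filled eyes, so genes raised at both times are shifted away from the RPE-choroid-preferring class. Its libraries also entered the spread, scaling and filter of the fit. Without one or another non-operated RPE-choroid library in the definition, 34% to 38.2% of RPE-choroid-preferring genes rose and 14.4% to 15.5% of retina-preferring genes fell. With 1 retina library left out of the fit, those shares were 20.7% to 30.8% and 4.19% to 10.1%, both lowest without non-operated replicate 1. Without 1-month replicate 3 they were 27.4% and 8.66%.

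The size of the preference went with the size of the change. Genes 2- to 8-fold higher in RPE-choroid had a median change of 0.47, those 8- to 32-fold higher 1.23, and those over 32-fold higher 1.52. In these 3 steps, 29.9%, 51.2% and 44% rose, and 26, 4 and 0 genes fell. On the retinal side the medians were -0.21 at 2- to 8-fold and -0.31 beyond 8-fold, where 13.8% and 19.3% of genes fell. The steep side of the relation was that of genes scarce in non-operated retina. The same non-operated retina libraries set both the preference and the change, with opposite sign. Noise in them, and entry through the 1-month group, both favour a rise among such genes. These steps were not repeated on the 2-month samples, so the slope is a description only.

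**Figure D3:**
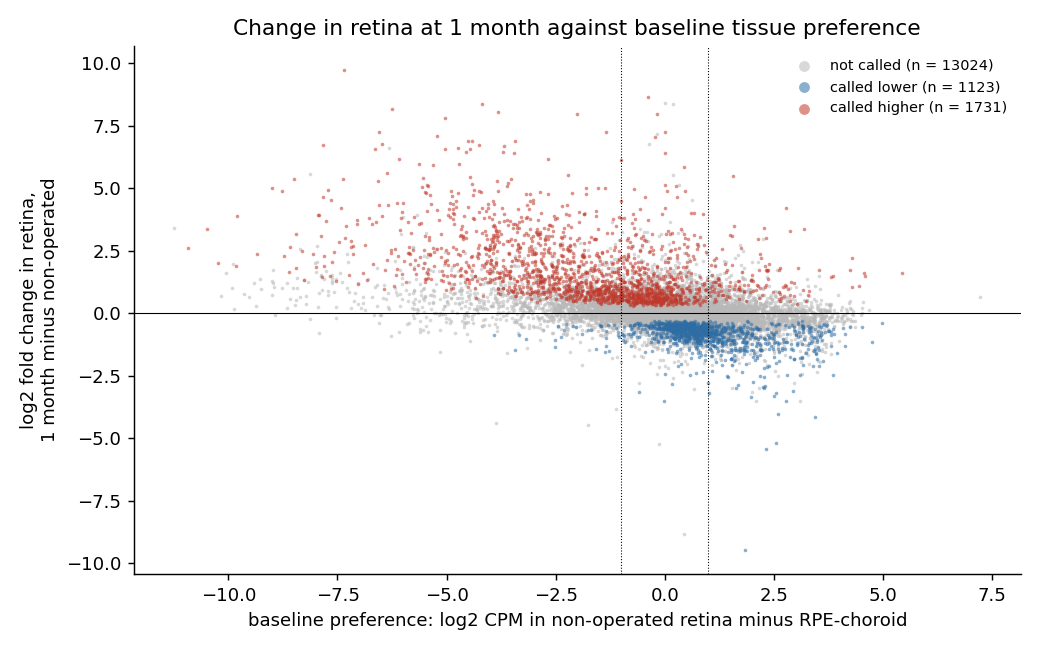
Each point is 1 of the 15878 genes tested, with the baseline preference on the x axis (log2 CPM in non-operated retina minus RPE-choroid, so that genes of RPE-choroid lie to the left) and the log2 fold change in retina at 1 month on the y axis. Dotted lines mark the 2-fold limits of the classes. Non-operated retina enters both axes, with opposite sign. Of the genes called higher (red), 60.2% lie to the left of the dotted lines. Of the genes called lower (blue), 37% lie to the right of them and 60.4% between them. The fitted change of a gene with 0 counts in a group depends on the prior count.

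The level of RPE-choroid-preferring genes in retina was also expressed as a percentage of their RPE-choroid level, which the definition of the class keeps low in non-operated retina. The median gene of the class was at 18.1%, 18.3% and 18.1% of its mean in non-operated RPE-choroid in the 3 non-operated retina libraries. At 1 month it was at 30.8%, 28.7% and 34.5% in replicates 1, 2 and 3. All 3 values exceed those of the non-operated libraries. For the 2749 genes of the class as set on the 2-month samples, relative to 2-month RPE-choroid, the medians were 15.6%, 15.6% and 15.2% in non-operated retina and 24%, 23% and 26.8% at 1 month. The gain was uneven among genes: the middle 50% of the class gained between 0.995 and 23.1 percentage points of the RPE-choroid level, with a median of 8.01. Genes over 32-fold higher in RPE-choroid gained a median of 1.22 points, those 8- to 32-fold higher 7.87, and those 2- to 8-fold higher 10.5.

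Class and abundance were also read together. Among RPE-choroid-preferring genes, 40.4% rose between 1 and 10 CPM, 37.3% between 10 and 100 CPM and 44.2% between 100 and 1000 CPM, so the share did not follow abundance. Among retina-preferring genes, the share that fell was 7.08%, 18.7% and 27.1% in the same bands. For shared genes it was 2.45%, 7.63% and 12.2%, and the share that rose was 6.48%, 5.51% and 4.68%. The rises at low abundance were mostly of RPE-choroid-preferring genes, 473 of 650 between 1 and 10 CPM, and this class held 1172 of the 3994 genes of that band. Of those 473, 125 were genes that reached the count minimum at 1 month and not in non-operated retina, which also places them nearer the RPE-choroid side. At 100 to 1000 CPM, 195 of the 328 genes that fell were shared and 130 retina-preferring. Precision differed along the scale, with a median standard error of 0.30 between 1 and 10 CPM, 0.15 between 10 and 100 CPM and 0.13 between 100 and 1000 CPM. The smallest changes called were 0.51 and -0.58 in the lowest of these 3 bands and 0.30 and -0.31 in the highest.

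The make-up of the libraries shifted with these changes. RPE-choroid-preferring genes took 4.86%, 5.03% and 4.79% of gene counts in non-operated replicates 1, 2 and 3, and 7.93%, 7.38% and 9.48% at 1 month. The means were 4.89% ± 0.123 (SD, n = 3) and 8.26% ± 1.09 (SD, n = 3), a ratio of 1.69. Retina-preferring genes took 33.5%, 32.8% and 33.2% in the non-operated libraries and 27.2%, 28.2% and 22.6% at 1 month. Their means were 33.2% ± 0.343 and 26% ± 2.96 (SD, n = 3 each). Neither set of values overlapped between the groups, and 1-month replicate 3 was the most extreme in both. How much of this shift is RPE-choroid tissue carried in the retina libraries was not tested. The 1731 genes that rose went from 4.82% ± 0.239 to 11.5% ± 1.6 of all gene counts and the 1123 that fell from 13.5% ± 0.539 to 8.55% ± 0.589 (SD, n = 3 each), which describes genes chosen by the same contrast. Counting error is small beside these spreads, the 95% exact binomial interval of a share being at most 0.0187 percentage points to either side.

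**Figure D4:**
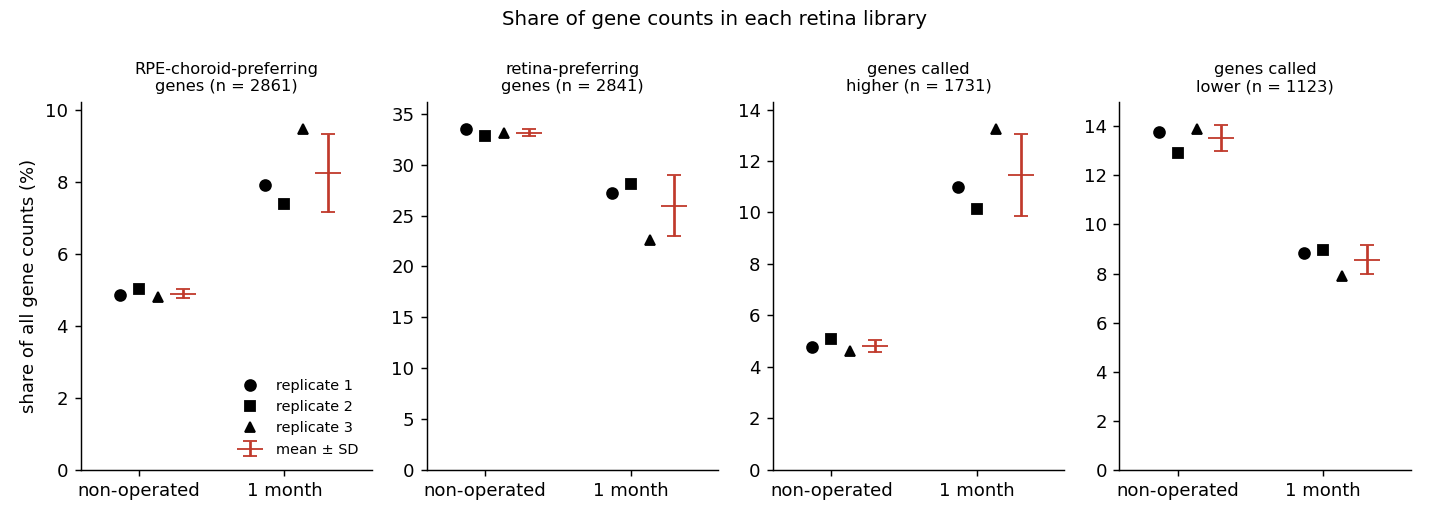
The share of all gene counts, in percent, taken in each retina library by RPE-choroid-preferring genes, retina-preferring genes, genes called higher and genes called lower, with the number of genes above each panel. Black symbols are single libraries and the red bar is the mean ± SD of 3. In each panel the 3 libraries at 1 month lie on 1 side of the 3 non-operated ones, and 1-month replicate 3 (triangle) lies farthest from them.

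Named genes were the 2 largest rises and the 2 largest falls among called genes with a mean of at least 100 CPM and no overlap between the groups. The largest rise was that of ENSOCUG00000006029. It stood at 11.5, 6.41 and 2.94 CPM in non-operated retina and at 321, 276 and 173 CPM at 1 month, in the order of the replicates. All 3 libraries at 1 month were far above the non-operated ones, which themselves spread widely. The change was 5.20 ± 0.93 (log2, SE), with an adjusted p-value of 0.0113 by edgeR, and it passed in each of 14 alternatives, at 5.42 without 1-month replicate 3. In RPE-choroid this gene was at 38.8 to 108 CPM in non-operated eyes and 436 to 538 CPM at 1 month, so it was RPE-choroid-preferring at baseline. Its change in retina exceeded that in RPE-choroid by 2.57 ± 0.95 on the log2 scale, which did not pass (interaction, adjusted p-value of 0.147 by edgeR).

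ENSOCUG00000007039 was the next. It stood at 19.2, 19.5 and 14.9 CPM in non-operated retina and at 475, 374 and 279 CPM at 1 month. The non-operated libraries lay close together and the 1-month ones spread more widely. The change of 4.40 ± 0.24 (log2, SE) had an adjusted p-value of 1.78e-05 by edgeR and was 4.57 without 1-month replicate 3. This gene was RPE-choroid-preferring too, at 793 to 2080 CPM in non-operated RPE-choroid. In that tissue it was at 427 to 809 CPM at 1 month, and the change in retina exceeded that in RPE-choroid by 5.35 ± 0.54, with an adjusted p-value of 0.00069 by edgeR. Both genes were lowest in replicate 3 of the 1-month group.

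The largest fall was that of ENSOCUG00000026384, at 375, 243 and 271 CPM in non-operated retina and 60.8, 57.6 and 11.2 CPM at 1 month. Replicate 3 lay far below the others of its group. The change was -2.78 ± 0.70 (log2, SE) with an adjusted p-value of 0.0326 by edgeR. Unlike the other named genes, it did not pass the test beyond 1.5-fold (adjusted p-value of 0.0918 by edgeR's glmTreat). The adjusted p-value was 0.0559 to 0.0908 without any 1 of the non-operated replicates 1, 2 and 3 or of the 1-month replicates 1 and 2, and 0.075 without the filter on low counts, while the change stayed between -3.11 and -2.57 in these fits. Without 1-month replicate 3 the change was -2.32, with an adjusted p-value of 0.0347. Over 14 alternatives it ranged from 0.00117 to 0.0908. The gene was shared at baseline, 0.98 log2 units higher in retina, just inside the limit of the class. In RPE-choroid it was at 112 to 179 CPM in non-operated eyes and 18.2 to 34.5 CPM at 1 month, and the changes of the 2 tissues differed by -0.29 ± 0.84 (adjusted p-value of 0.87 by edgeR).

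ENSOCUG00000014251, retina-preferring, stood at 189, 192 and 176 CPM in non-operated retina and at 42.2, 41.6 and 17.2 CPM at 1 month. The non-operated values were close together, and replicate 3 was again the lowest at 1 month. The change was -2.46 ± 0.46 (log2, SE) with an adjusted p-value of 0.0111 by edgeR, and over 14 alternatives the adjusted p-value ranged from 7.72e-09 to 0.0618, passing in 13. Without 1-month replicate 3 the change was -2.15, with an adjusted p-value of 0.0186. In non-operated RPE-choroid it ranged from 3.98 to 101 CPM, a spread that goes with the unequal share of retina-preferring genes in those libraries, whose part in this value was not tested.

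**Figure D5:**
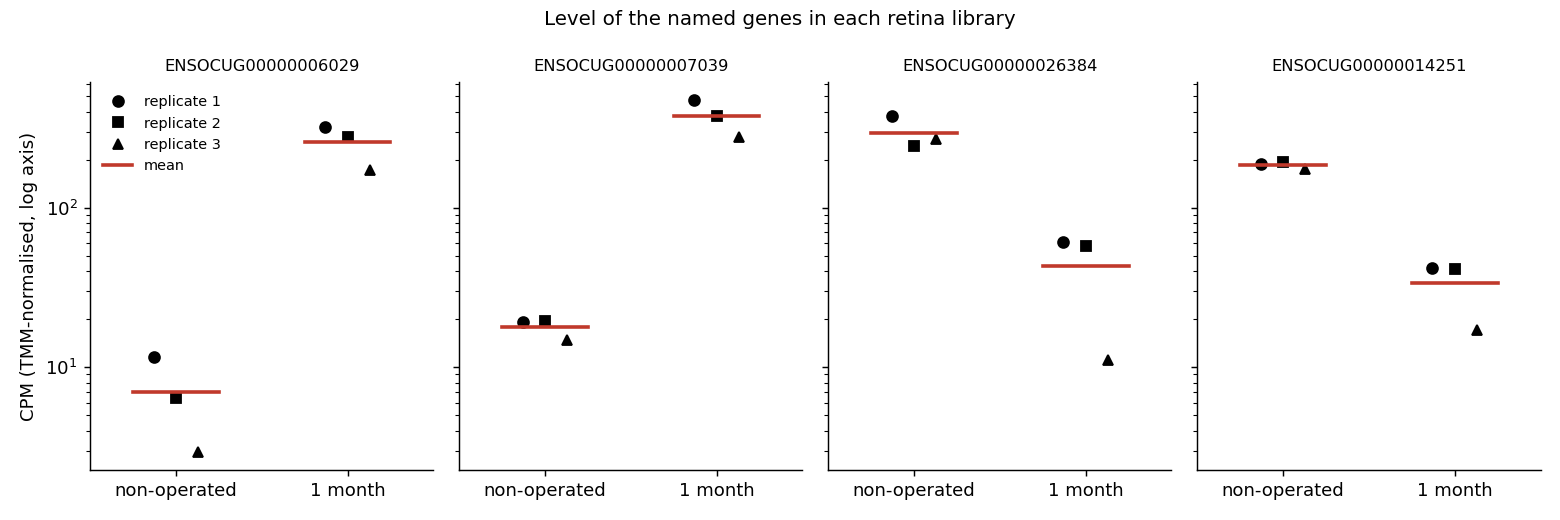
Level in CPM after TMM normalisation, on a log axis, of the 4 named genes in each retina library, with the mean of each group as a red line. The 2 genes on the left were at 2.94 to 19.5 CPM in non-operated retina and 173 to 475 CPM at 1 month, and the 2 on the right fell, with replicate 3 (triangle) lowest at 1 month in all 4.

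The 10 largest rises under the same rule, out of 159 genes that met it, ranged from 2.85 to 5.20 on the log2 scale, and 8 of them were RPE-choroid-preferring. The other 2 were retina-preferring. One of these went from a mean of 137 to 2490 CPM, the highest level of the 10 at 1 month, and the other from 87 to 837 CPM. The 10 largest falls, out of 336, ranged from -2.78 to -1.79, and 9 were retina-preferring. Their means were 186 to 1090 CPM in non-operated retina and 33.7 to 316 CPM at 1 month. In all 10, replicate 3 was the lowest library of the 1-month group, whereas among the 10 rises it was the highest in 5 and the lowest in 5. In the fit without it, the same 10 falls ranged from -2.32 to -1.41 and 9 passed, and the 10 rises ranged from 2.55 to 5.42 and 10 passed.

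Agreement of the replicates was read over all genes tested, since a call with 3 libraries a group nearly requires groups that do not overlap. Of the 15878 genes, 3489 (22%) lay entirely higher at 1 month and 3284 (20.7%) entirely lower. These include 1719 of the 1731 genes that rose and 1117 of the 1123 that fell. Among the 13024 genes not called, 3937 had groups that did not overlap. The 1-month libraries differed in the size of the change. Replicate 3 showed the largest of the 3 changes for 944 of the genes that rose (54.5%) and 686 of those that fell (61.1%). In medians, genes that rose were 1.28, 1.17 and 1.40 log2 units above the non-operated mean in replicates 1, 2 and 3, and genes that fell were at -0.71, -0.67 and -0.84.

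Replicate 3 of the 1-month group stood apart mainly in retina-preferring genes. Among the 9966 genes of at least 10 CPM, 274 were more than 2-fold lower in replicate 3 than in the mean of the other 1-month libraries, and 190 of these were retina-preferring. A further 144 were more than 2-fold higher, of which 60 were shared, 53 RPE-choroid-preferring and 31 retina-preferring. The corresponding counts were 23 lower and 64 higher in replicate 1, and 48 and 62 in replicate 2. In the non-operated libraries they were 32 to 54 lower and 44 to 48 higher. Within the groups, the median SD of retina-preferring genes was 0.21 in non-operated retina and 0.29 at 1 month, while that of shared genes was 0.16 in both.

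Calls also differed in how they held when a library was left out. Of the 1731 genes that rose, 725 (41.9%) were called higher in each of the 6 fits without 1 library, and of the 1123 that fell, 200 (17.8%) were called lower in each. RPE-choroid-preferring genes that rose were kept in each fit in 49.8% of cases, against 29.2% for shared and 33.1% for retina-preferring genes. By abundance, 49.7% of the rises between 1 and 10 CPM were kept, 38.3% between 10 and 100 CPM and 42.7% between 100 and 1000 CPM. For falls the shares were 16.2%, 17% and 20.1%. These are descriptions of overlapping fits, each with 8 of the 9 retina libraries.

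The retina at 2 months was set beside that at 1 month through their direct difference. The study's animal summary lists the 2-month eyes without induced proliferative vitreoretinopathy as fellow eyes. The other eye of those rabbits had the induced disease model. The 1-month eyes are listed as separate cases, so time and the fellow eye's surgery cannot be told apart. A single gene (0.0063%) differed between them by edgeR, and DESeq2 gave 66, while 296 genes were higher and 345 lower at 2 months at an unadjusted p under 0.05. The gene, not identified further here, was at 118, 135 and 105 CPM in non-operated retina, 64.2, 72.3 and 62.9 CPM at 1 month, and 193, 167 and 176 CPM at 2 months. It was 1.43 log2 units higher at 2 months than at 1 month, with an adjusted p-value of 0.00332 by edgeR. This count was 0 without 1-month replicate 1, 3 without 1-month replicate 2, 12 without 1-month replicate 3 and 72 without 2-month replicate 3, and a low count does not show that the times were alike. Both comparisons share the non-operated libraries. The genes that rose at 1 month had a median change of 1.34 there and 1.14 at 2 months, and those that fell -0.74 and -0.58. Because they were chosen by the 1-month contrast, a larger value at 1 month is favoured, and no decline is read from this.

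The 1-month change differed between retina and RPE-choroid for 917 of 16846 genes (5.44%), in an interaction term of all 18 libraries. For 914 of them the change was more positive in retina and for 3 more negative. The scarcity of more negative changes depended on non-operated RPE-choroid replicate 3. Without it, 2361 were more positive and 953 more negative, so the more positive changes still prevailed. The methods describe dissecting both tissues from each eye, with 3 eyes in each condition. Which libraries share an eye is not stated, and the fit treats the 18 libraries as independent. Of the 917, 864 were RPE-choroid-preferring genes, a class set on the same non-operated libraries. Classes were given only to the 15878 genes tested in retina, so some of the 917 have none. With classes from the 2-month samples, 737 were RPE-choroid-preferring, 139 shared and 8 retina-preferring among those more positive in retina. The total was 3314 without non-operated RPE-choroid replicate 3, and 459 to 546 without non-operated RPE-choroid replicate 1 or 2, non-operated retina replicate 1, 2 or 3, 1-month retina replicate 3 or 1-month RPE-choroid replicate 1, and 407 without 1-month RPE-choroid replicate 2. The class of RPE-choroid-preferring genes itself had a median difference of -0.67 log2 units in RPE-choroid at 1 month. In that tissue the median was 1.09 for retina-preferring genes and 0.004 for shared ones. The interaction holds both these differences and those in retina.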

How the data were processed

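Polyadenylated RNA was sequenced from directional libraries. According to the methods, Trim Galore was used for trimming, HISAT2 for alignment to OryCun2.0 (rabbit) and HTSeq for counting per Ensembl gene. The values deposited by the authors are raw counts, with no normalisation. The versions and the strand setting are not given in the sources used here. The 5 summary rows of HTSeq, 49.5% to 52.6% of the reads in the 6 libraries, were kept out of library sizes and tests.

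The 9 retina libraries were fitted together in edgeR 4.0.16 (R 4.3.3) with TMM normalisation, filterByExpr (minimum count 10, minimum total 15) and the robust quasi-likelihood test, two-sided, with Benjamini-Hochberg adjustment. The interaction used all 18 libraries, with no term for the eye. A standard error is the log2 fold change divided by the root of the F statistic. CPM values use TMM factors, over all 18 libraries where RPE-choroid is involved, and log2 CPM a prior count of 2. The counts per library leave the spread between replicates as the main error. The tests were checked on simulated counts.

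The members, bands and classes were chosen with earlier results of these data known. Gene lists by symbol could not be applied, because the table of names (38822 rows, assembly mOryCun1.1) matched 0 identifiers. At most 2 identifiers are therefore named in each direction. Same-numbered 1-month and non-operated libraries had deviations that correlated at 0.0498, 0.0421 and 0.17, so the numbers were not taken as pairs. Alternatives were DESeq2 1.42.0, RLE and upper-quartile normalisation, other filters, other sets of samples, the replicate block and each replicate left out. TMM factors from shared genes only were added after seeing the data.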

Additional observations from a re-analysis of the deposited data

Results flagged for a closer look

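The 1-month change differed between retina and RPE-choroid for 917 genes by edgeR's interaction test, 914 of them in the direction of a more positive change in retina. Without non-operated RPE-choroid replicate 3, 2361 were more positive and 953 more negative in retina. Among the named genes, ENSOCUG00000007039 showed such a difference. Its log2 fold change was 5.35 ± 0.54 (SE) larger in retina than in RPE-choroid, with an adjusted p-value of 0.00069 by edgeR.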

How the results depend on the processing

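Rises outnumbered falls under each setting tried for the fit, from 55.9% of calls with DESeq2 to 76.7% without non-operated retina replicate 1. The genes that fell were the less stable count: 411 in one fit of all 18 samples, 690 with the replicate block and 1746 with DESeq2, against 1123. Beyond 1.5-fold, 29 fell with all 18 samples, 37 with the replicate block and 169 with only the 6 samples, against 70. DESeq2 gave 66 genes between 1 and 2 months and 1568 for the interaction. With 1 replicate left out, 847 to 1338 genes rose and 258 to 888 fell, 341 to 545 rose and 22 to 51 fell beyond 1.5-fold, 0 to 72 differed between 1 and 2 months, and 407 to 3314 differed between the tissues. The cause of these shifts was not tested, and each such fit has fewer samples. With the replicate block, which pairs libraries by number only, 1299 genes rose, 486 rose beyond 1.5-fold, 684 differed between the tissues and 1 between the times. TMM factors from shared genes only, added after seeing the data, gave 1833 rises and 1006 falls. DESeq2 called 1729 of the 1731 rises and 1120 of the 1123 falls too, and 2215 and 1746 in all. No named gene changed direction, and 8 of 56 alternatives for them did not pass, 7 of them for ENSOCUG00000026384, including the replicate block (-2.76, adjusted p-value of 0.0641 by edgeR). Of fitted changes over 2-fold, 34.1% passed under 1 CPM, 82.8% between 10 and 100 CPM and 33.3% (7 of 21) at 1000 CPM and over.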
